A study of Rattus norvegicus with 4 samples.

Results

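miR-192 and miR-194 are microRNAs (miRNAs, RNAs of about 22 bases that guide repression of messenger RNAs) that are cut from neighbouring hairpins of a single primary transcript, and miR-215 is the close relative of miR-192. The rows rno-miR-192, rno-miR-194 and rno-miR-215 were taken by name, without the asterisk that marks the other arm of a hairpin. All 3 were among the 680 rat miRNA names measured. For miR-192 and miR-194 the starred arm was the minor one, but for some other names, such as miR-140, it held more reads. The study made small RNA libraries from total RNA of rat liver and compared tissue labelled as hepatic fibrosis with tissue labelled as normal, with 2 files in each group. The labels do not state how the fibrosis was brought about, the strain, sex or age of the rats, whether animals were pooled, or whether replicates came from separate animals. Fibrosis replicate 2 and normal replicate 2 were identical in all 680 values, with 0 differences, and were counted once, as a single library of unsettled tissue called the duplicated library. This left 3 distinct libraries, so the fibrosis and normal labels each had 1 library of their own, and ratios between libraries describe those libraries and not the conditions. Levels are in RPM, the reads of a miRNA per 1000000 reads of the library. The library totals were 6357069 to 7070374 reads, of which 3339603 to 3653412 fell on listed miRNAs.

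The 3 miRNAs mark epithelia of the liver, gut and kidney. In the liver they are made mainly by hepatocytes, where hepatocyte nuclear factors drive their transcription, and p53 can raise them in stressed cells. miR-192 and miR-215 repress cell cycle genes and the E-box repressors Zeb1 and Zeb2. miR-194 represses, among others, N-cadherin, an adhesion molecule of migrating cells. In the rat, as in other mammals, miR-194 is made from hairpins at 2 loci, next to miR-192 at one and next to miR-215 at the other.

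The mature sequences are shown because they set which of the 3 can share targets and which can be confused in counting. In the RefSeq table of build GRCr8 the 3 names matched miR-192-5p, miR-194-5p and miR-215, and the minor arms matched miR-192-3p and miR-194-3p. Each is written from 5′ to 3′, with the seed, bases 2 to 8, in capitals.
miR-192: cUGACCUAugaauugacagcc
miR-215: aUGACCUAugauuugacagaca
miR-194: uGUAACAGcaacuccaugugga
miR-192*: cUGCCAGUuccauaggucacag
miR-194*: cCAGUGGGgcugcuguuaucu
miR-192 and miR-215 had the same seed, UGACCUA, and no other mature name in the RefSeq table had it. They were identical at 18 of the 21 positions compared without gaps. The substitutions from miR-192 to miR-215, counted from the 5′ end, were C1A, A12U and C20A. The seed of miR-194, GUAACAG, was found in no other mature name of the table, and miR-194 matched miR-192 at 5 of 21 positions. miR-192 and miR-194 thus had unrelated seeds, although they came from the same stretch of the genome.

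The 4 hairpins are shown with their annotated mature arms in capitals, to show which precursor each row could come from.
Mir194-2: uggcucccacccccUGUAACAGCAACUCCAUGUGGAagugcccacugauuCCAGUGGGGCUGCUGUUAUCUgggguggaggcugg
Mir192: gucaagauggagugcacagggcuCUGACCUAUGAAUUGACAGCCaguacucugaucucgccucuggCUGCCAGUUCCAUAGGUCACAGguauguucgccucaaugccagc
Mir194-1: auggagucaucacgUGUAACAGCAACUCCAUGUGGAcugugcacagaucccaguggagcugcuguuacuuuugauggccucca
Mir215: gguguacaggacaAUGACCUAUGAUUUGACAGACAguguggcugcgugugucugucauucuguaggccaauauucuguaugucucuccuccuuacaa
Mir194-2 lay at chr1:212994024-212994108 and Mir192 at chr1:212994209-212994318 (GRCr8, plus strand), 100 bases apart. This pair was in no other annotated gene and stood between the coding genes Atg2a and Ehd1. Mir194-1 lay at chr13:99382716-99382798 and Mir215 at chr13:99382990-99383086 (plus strand), 191 bases apart, within the span of Iars2, a mitochondrial isoleucyl-tRNA synthetase gene. The mature miR-194 of both hairpins had the same 22 bases, so a read of miR-194 could not be assigned to either locus. The minor arm miR-194* was annotated on Mir194-2 alone.

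**Figure D1:**
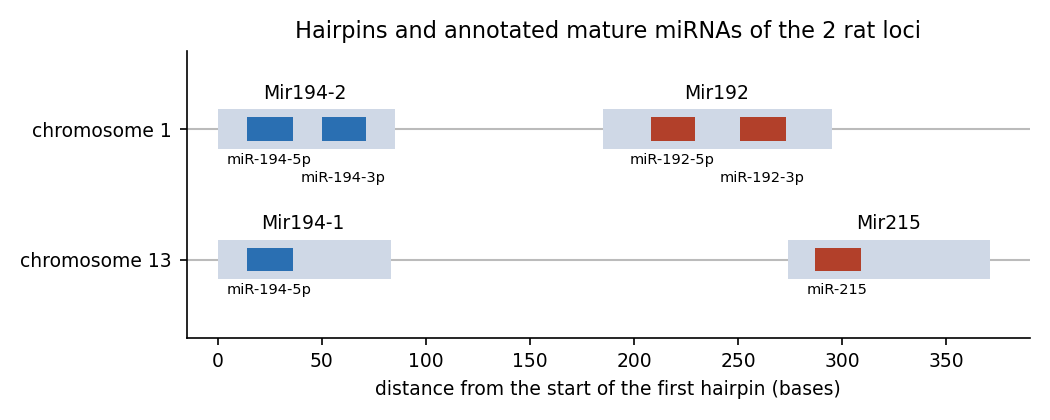
The hairpins (pale boxes) and annotated mature miRNAs (dark boxes, miR-194 in blue, miR-192 and miR-215 in red) of the loci on chromosome 1 and chromosome 13, by distance in bases from the start of the first hairpin. The hairpins are 100 bases apart on chromosome 1 and 191 bases apart on chromosome 13.

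miR-192 was one of the most abundant liver miRNAs in these libraries. In fibrosis replicate 1, normal replicate 1 and the duplicated library its level was 7826, 8936 and 7492 RPM, from 54402, 63182 and 47625 reads. Normal replicate 1 was the highest and the duplicated library the lowest. It ranked 6 in each of the 3 libraries, below let-7b and above let-7d, and its share of all miRNA reads was 1.55% (1.54 to 1.56, 95% exact binomial interval), 1.73% (1.72 to 1.74) and 1.43% (1.41 to 1.44) in the same order of libraries. Its neighbours in rank differed from it beyond counting error. let-7b stood 2.99 (2.96 to 3.02) to 4.47 (4.43 to 4.52) times above it, and let-7d at 0.476 (0.470 to 0.483) to 0.590 (0.582 to 0.599) times its level. All such intervals reflect counting alone, because the reads carry no molecular identifiers and need not be separate molecules.

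miR-194 was far lower, although it is transcribed together with miR-192. Fibrosis replicate 1 held 49.9 RPM (44.8 to 55.5), normal replicate 1 held 72.1 RPM (66.0 to 78.7) and the duplicated library held 47.2 RPM (42.0 to 52.8), from 347, 510 and 300 reads. Normal replicate 1 was again the highest, and the intervals of the other 2 libraries overlapped each other and not that of normal replicate 1. It ranked 40 of 250 miRNAs detected in fibrosis replicate 1, 36 of 239 in normal replicate 1 and 43 of 236 in the duplicated library. Its direct neighbours in rank, miR-322* and miR-532-5p in fibrosis replicate 1, miR-16 and miR-3559-5p in normal replicate 1, and miR-532-5p and miR-99a in the duplicated library, did not differ from it beyond counting error.

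miR-215 was near the limit of detection, with 3 reads in fibrosis replicate 1 and 2 reads in each of the other 2 libraries. These are 0.432, 0.283 and 0.315 RPM, while the limit set for a count of 0, 3 reads, is 0.432, 0.424 and 0.472 RPM. No difference in miR-215 between libraries was detectable at this depth: fibrosis replicate 1 over normal replicate 1 had a ratio with a counting interval of 0.175 to 18.3. Of the reads on miR-192 and miR-215 together, miR-215 held 0.00551% (0.00114 to 0.0161), 0.00317% (0.000383 to 0.0114) and 0.00420% (0.000509 to 0.0152) in fibrosis replicate 1, normal replicate 1 and the duplicated library. With 3 substitutions between them and no stated rule for ambiguous reads, it was not tested whether these few reads came from Mir215.

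The minor arms were close to absent. miR-192* had 3, 4 and 7 reads in fibrosis replicate 1, normal replicate 1 and the duplicated library, which is 0.00551% (0.00114 to 0.0161), 0.00633% (0.00172 to 0.0162) and 0.0147% (0.00591 to 0.0303) of the reads on both arms. miR-194* had 0 reads in fibrosis replicate 1, for which the limit of 3 reads is a share of 0.865% of the 347 reads on both arms and the exact 95% upper bound is 1.06%, and 1 read in each of the other 2 libraries. The hairpin of miR-192 thus gave nearly all of its counted reads from the 5p arm. For miR-194 the shares, 0.196% (0.00495 to 1.09) in normal replicate 1 and 0.332% (0.00841 to 1.84) in the duplicated library, rest on 1 read each.

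**Figure D2:**
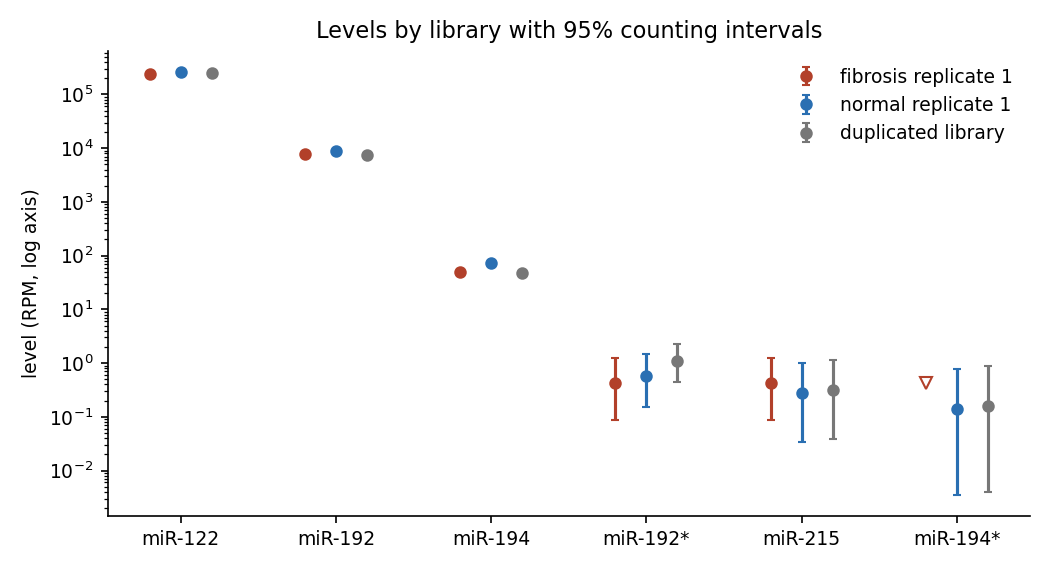
Level in RPM (log axis) of miR-122, miR-192, miR-194, miR-215 and the minor arms in the 3 distinct libraries, with 95% exact counting intervals as bars; the open triangle is the limit of 3 reads where 0 were counted. miR-192 lies between 7492 and 8936 RPM, miR-194 between 47.2 and 72.1 RPM, and miR-215 and the minor arms at 0 to 7 reads.

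Within each library miR-192 outnumbered miR-194 by more than 100 to 1. Per miR-194 read, fibrosis replicate 1 had 157 miR-192 reads (95% interval 141.1 to 174.7), normal replicate 1 had 124 (114 to 135) and the duplicated library had 159 (142 to 178). This is a ratio of reads that was not calibrated to molecules, and any bias of the kit for either sequence enters it. Depth and scaling cancel in it, however, so it can be set side by side between libraries. The ratio was 1.27 times as high in fibrosis replicate 1 as in normal replicate 1 (exact conditional interval of the odds ratio 1.10 to 1.46) and 1.28 times as high in the duplicated library as in normal replicate 1 (1.11 to 1.48). Between the duplicated library and fibrosis replicate 1 it was 1.01 (0.865 to 1.19), an interval that includes 1. Normal replicate 1 therefore stood apart from the other 2 libraries, with more miR-194 for its miR-192. The first 2 of these comparisons share normal replicate 1.

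Both miRNAs were lower in fibrosis replicate 1 than in normal replicate 1, miR-194 by more than miR-192. The ratio was 0.876 for miR-192 (0.866 to 0.886) and 0.692 for miR-194 (0.602 to 0.795), and both intervals excluded 1. Among the 76 miRNAs that averaged 10 RPM or more in this pair, 34.2% had an interval below 1, and the median ratio was 0.926. miR-194 had the third lowest ratio of the 76, and 27 of them had a ratio below that of miR-192. Neither miRNA was lower by 1.5-fold, a size that 1.32% of the 76 reached, although with upper-quartile scaling miR-194 was, at a ratio of 0.659.

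The duplicated library lay below normal replicate 1 as well. Its ratio to normal replicate 1 was 0.838 for miR-192 (0.828 to 0.848) and 0.654 for miR-194 (0.565 to 0.756). Both intervals lay below 1, beside 38.4% of the 73 miRNAs that averaged 10 RPM or more in that pair. miR-194 was past 1.5-fold lower, beside 16.4% of the 73. Set against fibrosis replicate 1, the duplicated library held 0.957 times the miR-192 (0.946 to 0.969) and 0.945 times the miR-194 (0.807 to 1.11). Only the interval of miR-192 excluded 1, beside 34.7% of 72 miRNAs with an interval below 1, and neither was past 1.5-fold lower, beside 12.5%. These 3 comparisons share libraries and are not separate evidence.

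What this says of fibrosis depends on which label of the duplicated library is right. The column header inside the file of fibrosis replicate 2 was that sample's title, while the header inside the file of normal replicate 2 was not its title; the headers were not taken as settling the tissue. If it is fibrosis, the 2 fibrosis libraries hold 7492 and 7826 RPM of miR-192 and 47.2 and 49.9 RPM of miR-194, all below the lone normal library. If it is normal, the 2 normal libraries hold 7492 and 8936 RPM of miR-192 and 47.2 and 72.1 RPM of miR-194, and the lone fibrosis library lies between them for both. The ratio of miR-192 to miR-194 followed the same division, with fibrosis replicate 1 at 157 between 124 and 159 in the second case. An exact permutation test of 2 libraries against 1 cannot give a two-sided p below 0.333.

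The comparison that the labels state, 2 fibrosis files against 2 normal files, called neither miRNA. limma on log2(RPM + 1) over 294 miRNAs called 0 (0%) at an adjusted p under 0.05, with 4 at an unadjusted p under 0.05. The fitted log2 difference, fibrosis minus normal, was -0.10 for miR-192 (SE 0.17) and -0.26 for miR-194 (SE 0.33), each with a Benjamini-Hochberg adjusted p of 1. miR-215, at 0.08 (SE 0.24), rests on 2 or 3 reads a library. Since 1 library stood in both groups, that library pulled each fitted difference towards 0 and left little ability to call. With the duplicated library counted once as fibrosis, limma gave -0.22 for miR-192 (SE 0.072, adjusted p of 0.511) and -0.56 for miR-194 (SE 0.13, adjusted p of 0.392), and 0 calls with 36 miRNAs at an unadjusted p under 0.05. With it counted once as normal, limma gave -0.064 (SE 0.18, adjusted p of 0.948) and -0.22 (SE 0.40, adjusted p of 0.925), and 0 calls with 27 at an unadjusted p under 0.05. Both fits take the spread from the group of 2 and apply it to the lone library.

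Against miR-122, the most abundant hepatocyte miRNA, miR-192 varied little and miR-194 more. Per 1000 miR-122 reads there were 32.1 (31.8 to 32.4), 34.0 (33.7 to 34.2) and 30.2 (29.9 to 30.5) miR-192 reads in fibrosis replicate 1, normal replicate 1 and the duplicated library. Per 1000000 miR-122 reads there were 205 (184 to 227), 274 (251 to 299) and 190.3 (169 to 213) miR-194 reads in the same order. Per miR-122 read, fibrosis replicate 1 thus held 0.945 times the miR-192 (0.934 to 0.956) and 0.747 times the miR-194 (0.650 to 0.857) of normal replicate 1. miR-122 itself stood at 243915, 263140 and 247931 RPM in the same order of libraries. In these bulk samples fewer hepatocytes and less of a miRNA per hepatocyte cannot be told apart.

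Of 6 other hepatocyte miRNAs that averaged 1 RPM or more, 2 ordered the libraries as miR-192 and miR-194 did, with normal replicate 1 highest and the duplicated library lowest. These were miR-365, at 7.21, 4.46 and 3.30 RPM in normal replicate 1, fibrosis replicate 1 and the duplicated library, and miR-378, made within the Ppargc1b gene, at 511, 488 and 283 RPM. For the duplicated library over fibrosis replicate 1 the intervals of miR-194 (0.807 to 1.11) and miR-365 (0.405 to 1.33) included 1. The share of all miRNAs with the order of miR-192 and miR-194 was not counted. In fibrosis replicate 1 all 6 other hepatocyte miRNAs were below normal replicate 1, beside 95 of all 147 miRNAs at the same minimum. Of the 6, 5 had intervals below 1, beside 22.4% of the 147. Such intervals narrow with more reads, so this share depends on abundance. At a mean of at least 50 RPM, which miR-122, miR-101a, miR-101b and miR-378 exceeded in this pair, it was 51.3%. In the duplicated library 5 of the 6 were below normal replicate 1, beside 88 of 148 miRNAs, and 3 had intervals below 1, beside 29.7%. Against fibrosis replicate 1 the duplicated library was lower for 2, beside 80 of 147 miRNAs, and higher for 4, beside 67. Among the 6 there was 1 interval below 1 (22.4% of the 147) and there were 4 above 1 (20.4%). miR-101a and miR-101b, made from separate loci, were 1.24 (1.15 to 1.35) and 1.19 (1.15 to 1.22) times as high there as in fibrosis replicate 1. miR-193 was 1.61 times as high (1.31 to 2.001), and miR-378 was at 0.580 times (0.548 to 0.615). The log2 of the median ratio of the 6 was -0.32 for fibrosis replicate 1 over normal replicate 1, beside -0.13 for all miRNAs at that minimum. It was -0.08 for the duplicated library over normal replicate 1, beside -0.10, and 0.14 for the duplicated library over fibrosis replicate 1, beside -0.03.

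**Figure D3:**
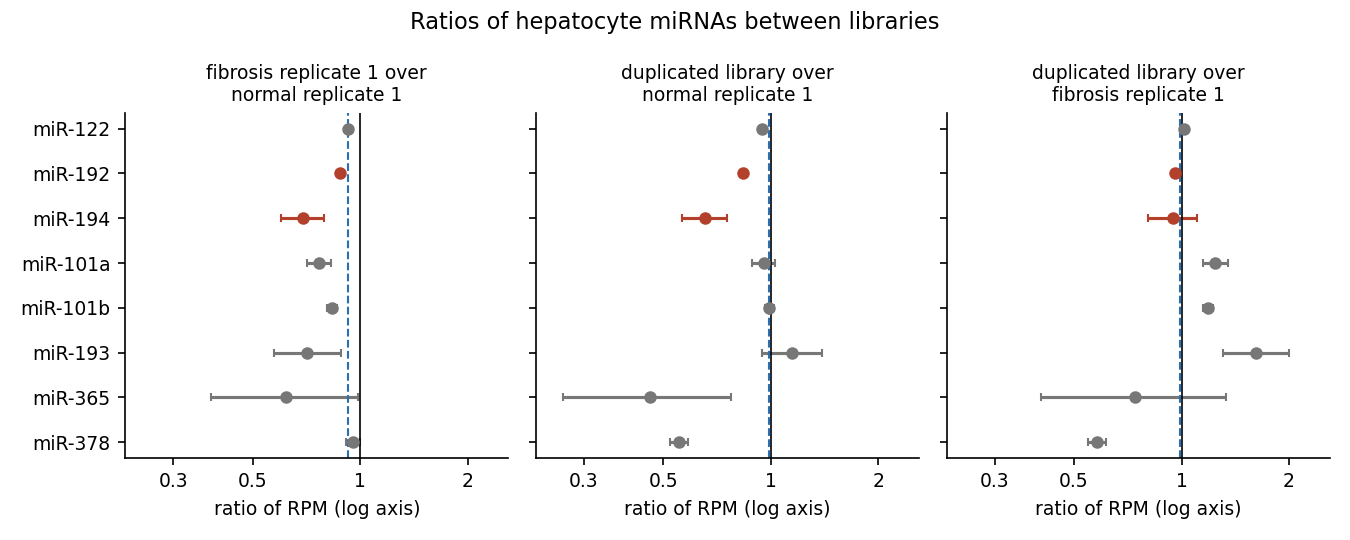
Ratio of RPM (log axis) between each pair of the 3 libraries for 8 hepatocyte miRNAs, miR-192 and miR-194 in red, with 95% exact counting intervals as bars; the dashed line is the median ratio of all miRNAs that averaged 10 RPM or more. miR-194 is at 0.692 and 0.654 against normal replicate 1, and its interval includes 1 between the duplicated library and fibrosis replicate 1.

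A wide gap between miRNAs from the same transcript was seen at other clusters too. A list of 30 clusters of miRNAs known to be transcribed together was used, of which 22 had at least 2 members with 10 reads or more in every library. Members of these clusters with fewer reads in any library were left out of the ratios and moves. The ratio of the highest to the lowest member, as the mean log2 over the 3 libraries, was 7.19 for miR-192 over miR-194, a geometric mean of 146 reads to 1. The median of the other 21 clusters was 3.10, and 3 of them had a wider ratio: miR-199a-3p over miR-214 at 7.30, let-7c over miR-99a at 10.85 and let-7f over miR-98 at 12.65. miR-29a over miR-29b, from the collagen-repressing miR-29 family, was close behind at 7.14. The narrowest among the members kept was miR-23a over miR-24 at 0.47. Their partner miR-27a was left out, at 47, 9 and 73 reads in fibrosis replicate 1, normal replicate 1 and the duplicated library. With it the ratio of that cluster would be wider. Several of these miRNAs, like miR-194, come from more than one hairpin, so their reads need not come from the cluster named.

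Over the 3 libraries, whether the ratio of miR-192 to miR-194 shifted by less than most other clusters depended on the minimum of reads. Between fibrosis replicate 1 and normal replicate 1 it shifted by more than most. Between the libraries with the lowest and the highest ratio, miR-192 over miR-194 moved by 0.36 on the log2 scale, the median of the other 21 clusters was 0.55, and 15 of them moved more. Between fibrosis replicate 1 and normal replicate 1 alone it moved by 0.34, the median of the others was 0.14, and 7 moved more. In that pair the interval of the change excluded 1 for miR-192 over miR-194 and for 3 of the other 21: miR-30d over miR-30b-5p at 2.12 (1.04 to 4.61), let-7f over let-7d at 0.963 (0.947 to 0.979) and let-7c over miR-99a at 1.48 (1.25 to 1.75). Counting error enters these moves, and is wider for members with fewer reads. Among the 11 clusters with at least 50 reads in every library, the median move of the other 10 across the 3 libraries was 0.34. Of these 10, 4 moved more than miR-192 over miR-194, and 1 moved more between fibrosis replicate 1 and normal replicate 1.

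**Figure D4:**
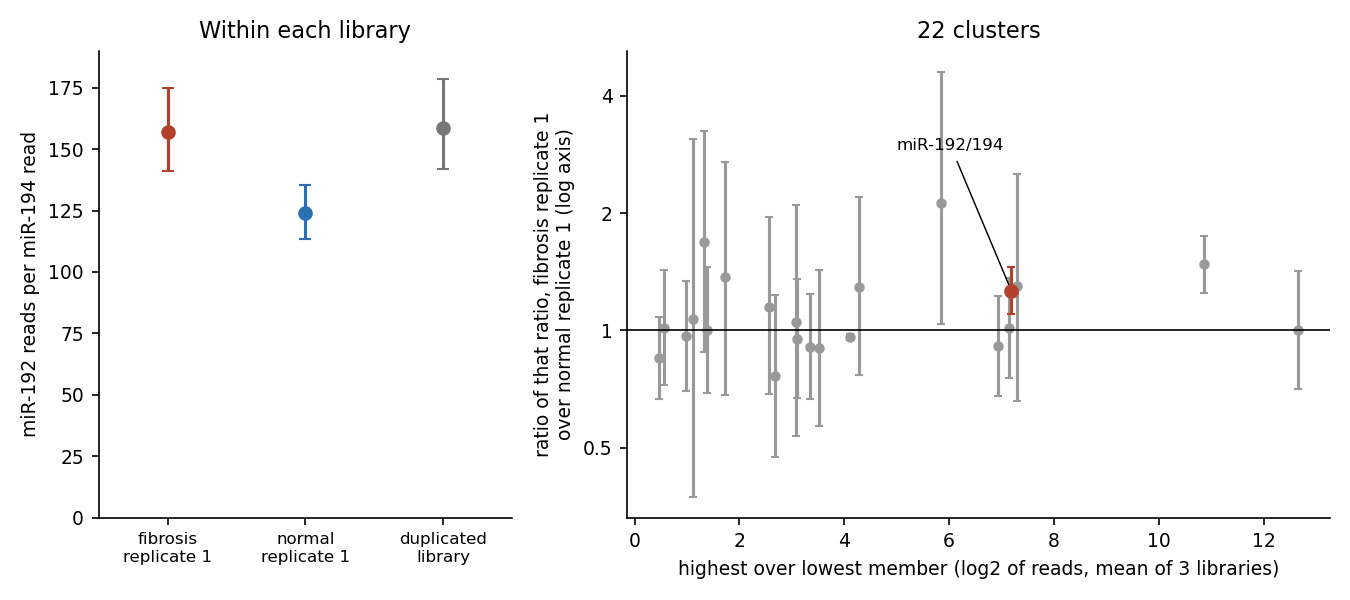
Left, miR-192 reads per miR-194 read in each library with 95% exact intervals as bars: 157, 124 and 159. Right, for 22 clusters, the change of the ratio of highest to lowest member from normal replicate 1 to fibrosis replicate 1 (log axis, exact intervals as bars) against the ratio itself (mean log2 of reads), with miR-192 over miR-194 in red at 1.27.

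The miRNAs with the most similar course over the 3 libraries were not the cluster partners. Likeness was the Euclidean distance of log2(RPM + 1), centred on each miRNA's mean, over 3 libraries among the 73 miRNAs that averaged 10 RPM or more. Nearest to miR-192 were miR-22* at a distance of 0.038, miR-23b at 0.056 and miR-122*, the minor arm of the miR-122 hairpin, at 0.076, and miR-194 ranked 28 of 72 at 0.277. Nearest to miR-194 were miR-16 at 0.125, miR-29c at 0.144 and miR-664-2* at 0.206, and miR-192 ranked 6 of 72. The highest library was 1.19 times the lowest for miR-192, a spread that 55 of the 73 miRNAs exceeded, and 1.53 times for miR-194, which 22 exceeded. With 3 points a course this similar is a description only.

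Markers of other liver cells varied between the same libraries, and their part in the values of miR-192 and miR-194 was not tested. Summed over 8 leukocyte miRNAs the level in fibrosis replicate 1, normal replicate 1 and the duplicated library was 88.6, 55.4 and 108 RPM, lowest where miR-192 and miR-194 were highest, but of the 4 that averaged 1 RPM or more in the first 2 libraries, 2 were higher and 2 lower in fibrosis replicate 1. miR-146b, at 33.7, 9.19 and 33.2 RPM, and miR-142-5p, at 39.4, 26.4 and 56.0 RPM, made up most of the sum. miR-511 was at 0 reads in fibrosis replicate 1 and the duplicated library. Its starred arm miR-511*, outside the sum, was at 12.1, 13.2 and 23.0 RPM. The 10 mesenchymal and smooth muscle miRNAs summed to 1624, 1520 and 2203 RPM in the same order. miR-21, at 934, 1042 and 1178 RPM, and miR-199a-3p, at 592, 350 and 903 RPM, made up most of it. Between the first 2 libraries miR-199a-3p went the way of the sum and miR-21 the other way. For 4 of the 8 measured, fibrosis replicate 1 held more than normal replicate 1, and for 4 it held less. Both miR-132 and miR-140 were at 0 in normal replicate 1 and the duplicated library. The starred arms miR-140* and miR-322*, outside the sum, were at 880, 868 and 860 RPM and at 50.8, 41.2 and 62.6 RPM. The 2 endothelial names, miR-126 and miR-126*, are arms of the same hairpin and summed to 7.77, 6.51 and 10.9 RPM. For neither arm did the interval between any pair of libraries exclude 1. The 8 biliary and other epithelial names summed to 109, 125.2 and 131 RPM, with miR-141 at 0 in fibrosis replicate 1 and normal replicate 1. Most of that sum was miR-31, at 82.1, 100.3 and 114 RPM. Of 7 such names measured, 5 were lower and 2 higher in fibrosis replicate 1 than in normal replicate 1. In the duplicated library 6 were lower than in normal replicate 1 and 1, miR-31, was higher. The 2 erythroid miRNAs summed to 2.88, 7.78 and 2.05 RPM. The 6 names of kidney and gut epithelium, the other tissues rich in miR-192 and miR-194, summed to 168, 191.8 and 113 RPM. Nearly all of that sum was miR-10a-5p, at 89.9, 103 and 55.2 RPM, and miR-30a, at 77.4, 86.8 and 55.4 RPM. miR-204 was at 0 in all 3 libraries and miR-196a at 0 in normal replicate 1. The 9 hepatocyte names with a row summed to 253609, 274276 and 257346 RPM, nearly all of it miR-122, and none was at 0. The hepatocyte list, which includes miR-192 and miR-194, thus had reads of these 9 of its 10 names in all 3 libraries. For miR-455 these were 3, 4 and 2 reads, close to the limit of 3. Its starred arm miR-455*, outside the list, had more, with 43, 51 and 61 reads. miR-365*, also outside the list, had 62, 87 and 24 reads, beside 31, 51 and 21 of miR-365. Every other list had a few reads or more in each library.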

How the data were processed

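Small RNA libraries of rat liver were prepared from total RNA with a kit from Illumina (per the labels' protocols). CASAVA 1.4 and build rn5 are named in the submitters' processing notes, while for the aligner, the miRNA annotation and the treatment of ambiguous reads the entry is: not given in the sources used here. The values the authors deposited are RPM. Each value above 0 was a whole multiple of 1 read within 0.01 reads in 100% of cases, which gave reads and totals. Intervals are exact (Clopper-Pearson) at 95%. The fit was limma 3.58.1 in R 4.3.3 with a mean-variance trend over miRNAs above 0 in any library. It was tested on simulated data. Recovery of changed miRNAs was required there only for separate libraries, not for a library placed in both groups, as here. On the recovered reads, edgeR 4.0.16 (quasi-likelihood) and DESeq2 1.42.0 each called 0 miRNAs, with 1 and 0 at an unadjusted p under 0.05. Ratios used Python 3.11.15 and scipy 1.17.1. Named were the members and their other arms, the hepatocyte list, the clusters with the widest and narrowest ratio, the neighbours in rank and the 3 nearest courses. miR-29a over miR-29b, miR-27a and the clusters whose interval excluded 1 were named after their values were seen. So were the markers at 0 or with most of a sum and the starred arms of markers. Members and lists were chosen with earlier results of these data known. p-values measure only the spread between these samples, which may be technical. Sequences and coordinates are from RefSeq, GRCr8.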

Additional observations from a re-analysis of the deposited data

How the results depend on the processing

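Both miRNAs kept a ratio below 1 between fibrosis replicate 1 and normal replicate 1 under every scaling and pseudocount tried. For miR-192 it was 0.918 with TMM factors, 0.833 with upper-quartile factors, 0.916 with DESeq2 size factors, 0.897 per reads on listed miRNAs, 0.852 with miR-122 left out of these and 0.945 per miR-122 read (the last chosen after seeing the data), all outside its counting interval. The last shifts the median log2 ratio of 76 miRNAs by 0.11. For miR-194 the values under the planned scalings and pseudocounts, and per miR-122 read, stayed within its interval. With the duplicated library in place of fibrosis replicate 1 the ratio of miR-192 was 0.838. In place of normal replicate 1 it turned the direction of both, to 1.04 for miR-192 and 1.06 for miR-194.

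In limma, leaving out 1 file at a time gave log2 differences of -0.22 to 0.03 for miR-192 and -0.56 to 0.04 for miR-194, with 0 to 0 calls. The values above 0, 0.0315 and 0.0397, came without normal replicate 1, when the duplicated library was the only normal file. With the replicate number as a block the differences were -0.10 (SE 0.082) and -0.26 (SE 0.20), each with an adjusted p of 0.602, and 0 calls. Replicates with the same number deviated together (r = 0.694 across 72 miRNAs), which the shared library brings about by construction, so the numbers were not taken as pairs. miR-192 reads per miR-194 read stayed within its interval in each library with both arms counted, with miR-215 added and with a pseudocount.

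With at least 50 reads in every library the median move of the other clusters was 0.34 and 4 moved more than miR-192 over miR-194; fewer clusters were left. The share of miRNAs with an interval below 1 fell at a mean of at least 1 RPM. It was 22.4% in fibrosis replicate 1 over normal replicate 1 and in the duplicated library over fibrosis replicate 1. In the duplicated library over normal replicate 1 it was 29.7%. At a mean of at least 50 RPM the share rose to 51.3% in both comparisons with normal replicate 1. It rose to 43.6% in the duplicated library over fibrosis replicate 1. The share past 1.5-fold lower at a mean of at least 1 RPM was 10.9% in fibrosis replicate 1 over normal replicate 1. In the duplicated library over normal replicate 1 it was 28.4%. At a mean of at least 50 RPM it was 2.56% in fibrosis replicate 1 over normal replicate 1. Those filters test other sets of miRNAs. Depth limits miR-215 and the minor arms, with 0 to 7 reads a library, where no difference was detectable.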
